A study of Mus musculus with 16 samples.

Results

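Jchain, Pigr, Mzb1 and Cd79b, 4 genes of antibody production and of antibody transport into the gut lumen, were read in 16 libraries of mouse small intestine. They were found by their symbols, 1 row each in both tables, among 24420 features. They were chosen by their measured levels: earlier results of these libraries had shown a difference in Jchain and Pigr between Mfge8 null and WT enterocytes. Their own values are therefore given as a description, with no test.

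All libraries came from C57B6 mice, per the labels. The enterocyte experiment held 5 libraries from Mfge8 null mice and 4 from WT mice, each made from primary enterocytes, the absorptive cells of the gut lining. The intestine experiment held 3 libraries from Cd36 null mice and 4 from WT mice, each made from small intestinal tissue. CD36 takes up long-chain fatty acids at the cell surface, and MFGE8 is a glycoprotein that cells secrete and that engages integrins. The labels gave no age, sex or intestinal region, and did not say whether each library stands for its own animal. The p-values given for list genes therefore rest on differences among libraries that may be technical.

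IgA is the main antibody of the gut surface. Plasma cells beneath the epithelium join IgA monomers into dimers through the J chain, and the polymeric immunoglobulin receptor (pIgR) on the basal side of enterocytes binds the J chain, carries the dimer through the cell and releases it into the lumen. The J chain is thus a product of plasma cells, and pIgR a product of the epithelium.

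Enterocyte libraries held 1618369 to 2459812 assigned reads and intestine libraries 850297 to 1000694. Levels are normalised reads, in which the reads of a library are divided by its size factor, and log2 differences are on the log2(value + 1) scale. Mfge8 itself read 1.64 to 7.50 in Mfge8 null enterocytes, against 7.94 to 23.4 in WT enterocytes. Cd36 read 6.48 to 16.0 in Cd36 null intestine, against 111 to 116 in WT intestine. Intestine libraries of 1 genotype differed by little more than counting error (chi-square per degree of freedom 0.987 to 1.12 over 9 pairs, against 6.26 to 20.2 over 16 pairs of enterocyte libraries). They were counted as 1 sample per genotype, and no test was made between Cd36 null and WT intestine. In the libraries labelled intestine, the summed level of smooth muscle, endothelial and other stromal genes was 16.3 to 17.6 in Cd36 null and 23.1 to 36.4 in WT, and smooth muscle genes such as Myh11 and Acta2 were at or near 0.

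The 250 bases upstream of the starts of Jchain and Pigr are shown because these are the members whose levels differed between the enterocyte groups. The sequences are from RefSeq on GRCm38.p6 (mm10), written 5′ to 3′ on the gene's strand, and capitals mark the only match among the motifs searched. Jchain lies on the minus strand at chr5:88519809-88527897 and its upstream stretch at chr5:88527898-88528147. Pigr lies on the plus strand at chr1:130826684-130852249 and its upstream stretch at chr1:130826434-130826683.
Jchain: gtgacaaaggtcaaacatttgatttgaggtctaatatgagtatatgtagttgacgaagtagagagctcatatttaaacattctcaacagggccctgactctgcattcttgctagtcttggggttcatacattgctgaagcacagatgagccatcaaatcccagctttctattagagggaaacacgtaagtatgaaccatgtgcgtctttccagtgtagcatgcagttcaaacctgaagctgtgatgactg
Pigr: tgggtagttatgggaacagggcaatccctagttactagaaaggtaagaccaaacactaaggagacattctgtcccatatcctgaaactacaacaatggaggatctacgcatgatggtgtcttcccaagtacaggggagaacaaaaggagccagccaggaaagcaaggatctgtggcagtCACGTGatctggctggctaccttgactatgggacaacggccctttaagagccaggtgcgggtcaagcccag
The motifs, searched on both strands, were the interferon-stimulated response element core by its name, the E-box CACGTG bound by USF factors, the GAS element TTCNNNGAA, the octamer ATGCAAAT, the PU.1 core GAGGAA, the TATA box TATAAA and the NF-kB motif by its name. The Pigr stretch held 1 CACGTG, which begins 71 bases before the start, and 6.02% of 32851 mouse promoter stretches of this length held it. Neither stretch held any of the others, which occurred in 1.601% (octamer) to 23.3% (PU.1 core) of promoter stretches.

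Jchain encodes the J chain itself. It read 425, 189, 199, 218 and 438 in Mfge8 null enterocytes 1 to 5, against 14.0, 61.3, 42.3 and 116 in WT enterocytes 1 to 4. The groups did not overlap: the lowest null library lay above the highest WT library. The means were 294 ± 126 in Mfge8 null (SD, n = 5) and 58.5 ± 43.1 in WT enterocytes (SD, n = 4), a ratio of 5.02 and a log2 difference of 2.55 with a standard error of 0.43. The spread inside each group was wide, since the highest null library was 2.32 times the lowest and the highest WT library 8.28 times the lowest.

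Pigr encodes the receptor that carries the J-chain-bound antibody. It read 4191, 5242, 4905, 4852 and 4550.3 in Mfge8 null enterocytes 1 to 5, against 3547, 2998, 2962 and 2850.2 in WT enterocytes 1 to 4. All null libraries were above all WT libraries. The means were 4748 ± 396 in Mfge8 null (SD, n = 5) and 3089 ± 312 in WT enterocytes (SD, n = 4), a ratio of 1.54 and a log2 difference of 0.62 with a standard error of 0.15. Pigr was the 40th most abundant of 24420 features in the enterocyte table by mean level, where Jchain stood at 1760. So 2 of the 4 genes had higher levels without overlap in Mfge8 null enterocytes, a property of 3.35% of the 9432 genes tested there; 6.42% were without overlap in either direction. Since this contrast led to their choice, nothing is read from that share.

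Mzb1 encodes a chaperone of the endoplasmic reticulum that helps plasma cells and marginal zone B cells assemble antibody. It read 16.7, 9.87, 3.995, 17.1 and 40.2 in Mfge8 null enterocytes 1 to 5, against 0, 6.24, 11.8 and 1.99 in WT enterocytes 1 to 4. The groups overlapped, with null 3 below WT 2 and WT 3 and null 2 below WT 3. The log2 difference was 1.86 with a standard error of 0.68, on means of 17.6 ± 13.8 in Mfge8 null and 5.00 ± 5.21 in WT enterocytes (SD). Unlike the other members, Mzb1 overlaps exons of another gene, SPATA24, on the same strand. How reads in that stretch were counted is not given in the sources used here, so Mzb1 levels carry this limit in both experiments.

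Cd79b, on the minus strand at chr11:106311341-106314562, encodes Ig-beta, a signalling chain of the B cell receptor. It read 17.6, 5.48, 3.995, 1.07 and 13.9 in Mfge8 null enterocytes 1 to 5, against 3.51, 8.32, 14.1 and 1.99 in WT enterocytes 1 to 4. High and low libraries occurred in both groups, and the log2 difference of 0.12 was smaller than its standard error of 0.64. All 4 genes passed the filter on low values in this table, which asked for a level of at least 5 in at least 4 libraries. Mzb1 passed with 4 null and 2 WT libraries and Cd79b with 3 null and 2 WT libraries, while Jchain and Pigr passed in all 9.

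**Figure D1:**
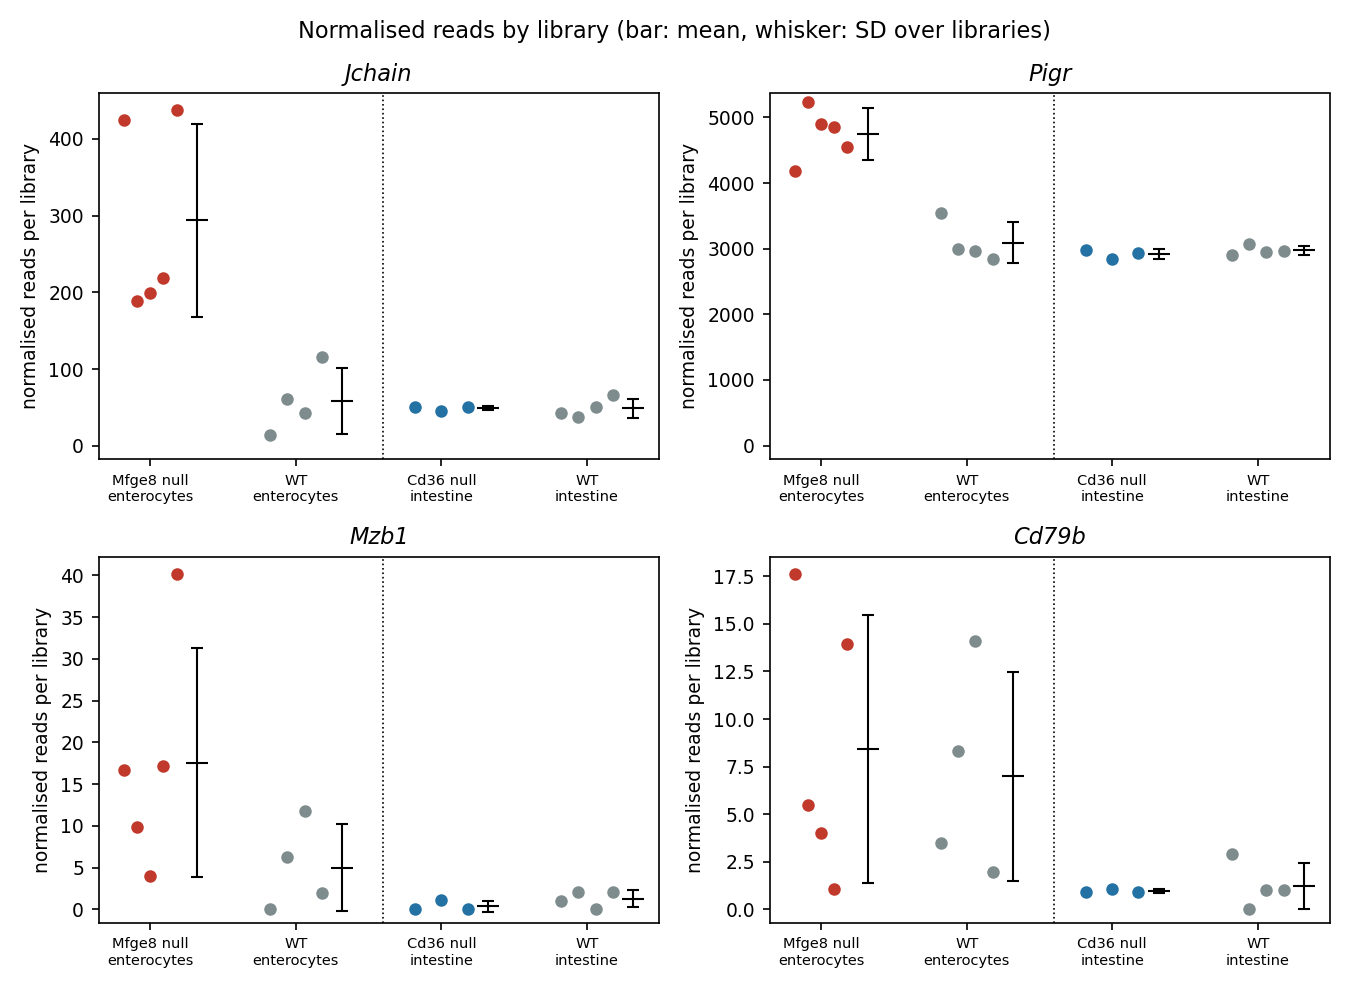
Normalised reads (vertical axis, linear from 0) of the 4 genes in each library, with Mfge8 null beside WT enterocytes and Cd36 null beside WT intestine; points are libraries, bars the mean and whiskers the SD over libraries. Jchain and Pigr separate the enterocyte groups, with 189 as the lowest Jchain level in Mfge8 null and 116 as the highest in WT, while the intestine groups lie close together.

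In the intestine experiment Jchain read 50.7, 45.8 and 49.95 in Cd36 null 1 to 3, against 42.3, 37.2, 50.9 and 65.7 in WT 1 to 4. The groups overlapped. From summed reads, Jchain made up 54.0 RPM (reads scaled to a common total of assigned reads per library) in Cd36 null intestine (95% exact Poisson interval 45.8 to 63.3) and 55.1 in WT intestine (47.6 to 63.5). The ratio was 0.980, with a 95% interval of 0.788 to 1.22 that covers counting error only.

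Pigr read 2977, 2837 and 2937 in Cd36 null intestine, against 2909, 3068, 2953 and 2960.4 in WT intestine. The ranges overlapped here too, and the ratio of the mean normalised reads was 0.981. On the RPM scale, the ratio from summed reads was 0.963 with a counting interval of 0.937 to 0.989, so part of its distance from 1 comes with the scaling. Whether the effects of the genotypes differ was not tested, since the tables were normalised separately and the intestine groups hold 1 sample each.

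Mzb1 had 1 read in all in Cd36 null intestine, in library 2, against 5 in WT intestine, with none in WT 3. Cd79b had 3 reads in all in Cd36 null intestine, 1 per library, against 5 in WT intestine. Both failed the filter in this table, and a difference of either gene was not detectable at this depth: the intervals of their ratios ran from 0.00523 to 2.21 for Mzb1 and from 0.115 to 3.81 for Cd79b.

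**Figure D2:**
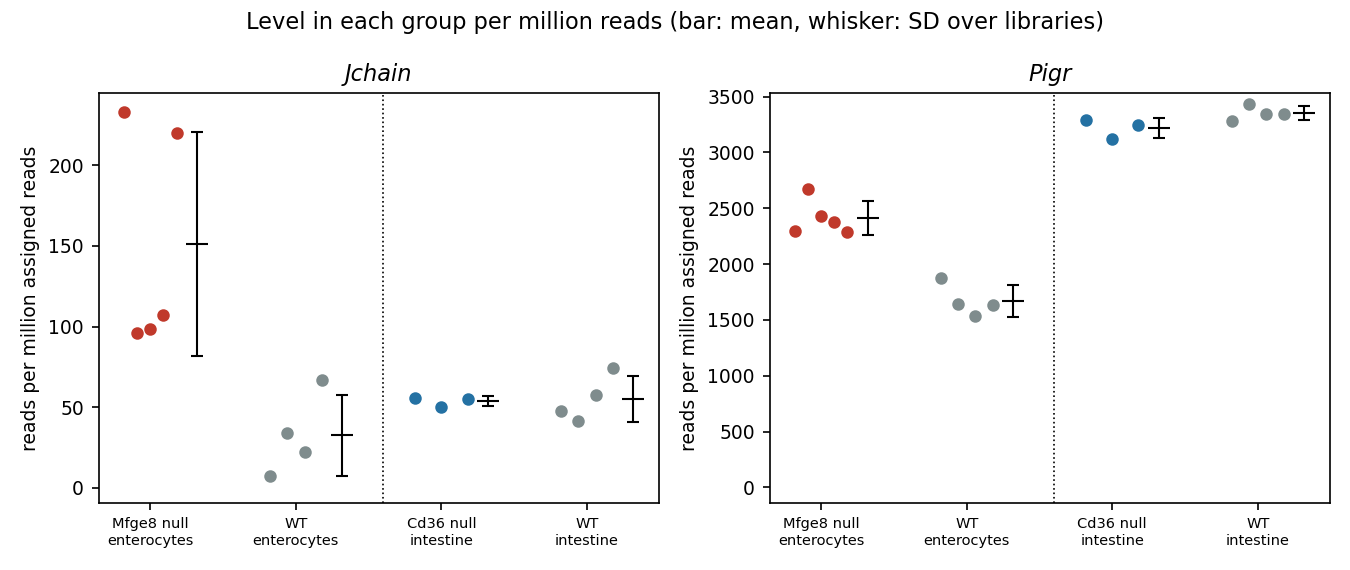
RPM, reads scaled to a common total (vertical axis, linear) of Jchain and Pigr in each library of the 4 groups; bars are means and whiskers SDs over libraries, and the dotted line parts the experiments. Mfge8 null enterocytes are highest for Jchain, with a mean of 151, whereas both intestine groups are highest for Pigr, with means of 3219 in Cd36 null and 3349 in WT.

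On the RPM scale, the order of the 4 groups differed between the genes. Jchain was highest in Mfge8 null enterocytes (151 ± 69.5, SD, n = 5), followed by WT intestine at 41.6 to 74.1, Cd36 null intestine at 50.4 to 56.0 and WT enterocytes (32.4 ± 25.2, SD, n = 4). The lowest Mfge8 null library, at 96.1, lay above every library of the other groups, and those 3 groups overlapped with each other. Pigr was highest in WT intestine at 3281 to 3433, followed by Cd36 null intestine at 3123 to 3288, Mfge8 null enterocytes (2413 ± 155) and WT enterocytes (1673 ± 143). For Pigr the intestine groups overlapped, and the other neighbours in the order did not. WT enterocytes had 0.495 times the Pigr and 0.579 times the Jchain RPM of WT intestine, but these libraries also differ in RNA kit, depth and experiment, which cannot be told apart from the sample type.

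Within the enterocyte groups, libraries with more Jchain mostly had less Pigr. From high to low, Jchain ordered the Mfge8 null libraries 5, 1, 4, 3, 2 and the WT libraries 4, 2, 3, 1, while Pigr ordered them 2, 3, 4, 5, 1 and 1, 2, 3, 4. With each group's mean subtracted, Pearson's r between the log2 levels of Jchain and Pigr was -0.89 over the 9 libraries. It was -0.68 on RPM, so the scaling moves it, and it ran from -0.92 to -0.78 when each library was left out in turn. The same measure was 0.56 between Jchain and Mzb1, 0.25 between Jchain and Cd79b and 0.56 between Mzb1 and Cd79b. These are descriptions over 9 libraries, in each of which all genes share a size factor, and carry no p.

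**Figure D3:**
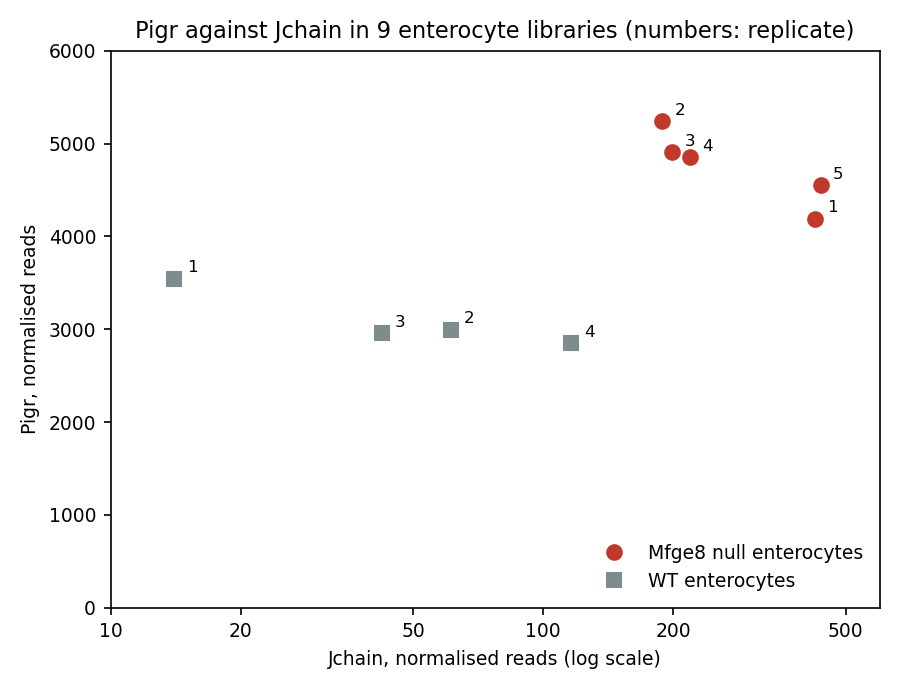
Normalised Pigr reads (vertical axis, linear) against normalised Jchain reads (horizontal axis, logarithmic) in the enterocyte libraries, each point numbered by its replicate. Mfge8 null libraries lie to the upper right of WT libraries, and inside each group the library with the most Jchain, null 5 and WT 4, is low in Pigr at 4550.3 and 2850.2.

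Among the 9432 genes tested in enterocytes, those whose deviations from the group means were most like Jchain's were Pip4k2a (r = 0.959), Klre1 (0.957), Ttyh3 (0.954), Smc2 (0.952) and Baz1a (0.951). Those most like Pigr were Mrps30 (0.957), Rnf43 (0.952), Ociad2 (0.94996), Blvrb (0.947) and Mrpl43 (0.942). Jak1 (0.930) was the gene most like Mzb1, and 2310009A05Rik (0.927) the one most like Cd79b. No list of nearest genes held another of the 4 genes. Over 9 libraries and 9432 genes such values are high by selection.

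The J chain is known as a product of plasma cells, so the other plasma cell genes were read beside it. Which cells the Jchain reads of these libraries came from was not tested. Of 15 tested plasma cell genes other than the members, 1 passed limma's test with Benjamini-Hochberg adjustment as higher in Mfge8 null enterocytes, none as lower, and the median log2 difference was 0.44, against 0.00 over all genes tested. In this comparison 3.21% of all tested genes passed, 149 as higher (1.58%) and 154 as lower (1.63%); on RPM the split was 110 higher and 213 lower. Log2 differences were positive in 13 of the 15 plasma cell genes, beside 50.1% of all genes tested. The gene that passed was Hsp90b1, the endoplasmic reticulum chaperone GRP94, which epithelial cells also express. Hsp90b1 read 940.3, 1103, 1173, 1076 and 1127 in Mfge8 null enterocytes, against 643, 786, 757 and 753 in WT enterocytes. Every null library was above every WT library, with a log2 difference of 0.56 (standard error 0.13, limma adjusted p = 0.0299), but the call held in 9 of 22 alternative settings, over which the adjusted p ran from 0.0260 to 0.165. Here and below, those 22 hold the same fit under separate names: without null 5, and replicates 1 to 4 of both genotypes with no block. Leaving out any of null 3, 4 and 5 or WT 1, 2 and 3 ended it.

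Among plasma cell genes that did not pass, the regulator Prdm1 (Blimp-1) averaged 134 ± 29.2 in Mfge8 null and 78.4 ± 26.0 in WT enterocytes (limma adjusted p = 0.056). Xbp1, a driver of secretory capacity, averaged 559 ± 144 in Mfge8 null and 476 ± 88.2 in WT enterocytes. Sdc1 (CD138) averaged 125 ± 40.5 in Mfge8 null and 80.9 ± 13.6 in WT enterocytes. These genes are expressed by enterocytes as well as by plasma cells. Of genes closer to the plasma cell lineage, Tnfrsf17 (BCMA) read 0 to 1.10 in Mfge8 null and 0 to 1.99 in WT enterocytes, and Derl3 read 0 to 1.64 in Mfge8 null and 0 to 1.57 in WT enterocytes. Pou2af1, a B cell and plasma cell coactivator, read 1.10 to 37.2 in Mfge8 null and 1.17 to 14.9 in WT enterocytes, highest in null 1 and null 5, the null libraries that were also highest in Jchain. Among WT libraries it was highest in WT 3, and read 1.99 in WT 4, the WT library highest in Jchain. Slamf7 had the highest log2 difference of the 15 genes, 1.72 (standard error 0.68), and did not pass (limma adjusted p = 0.217). It read 4.28 to 11.5 in Mfge8 null and 0 to 10.9 in WT enterocytes, so the groups overlapped. In bulk libraries fewer cells of a type and less RNA per cell cannot be told apart.

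Of the B cell genes, Cd79a, the partner of Cd79b, and Pax5, the B cell identity factor, were listed at 0 in all 16 libraries. Ms4a1 (CD20) read 0 to 10.8 in Mfge8 null and 0 to 10.2 in WT enterocytes. Of 3 tested B cell genes other than Cd79b, none passed in enterocytes, with a median log2 difference of -0.61. The antibody heavy and light chain constant genes, Igha and Igkc among them, are not analysed here, so the IgA chains that the J chain joins have no value beside Jchain.

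**Figure D4:**
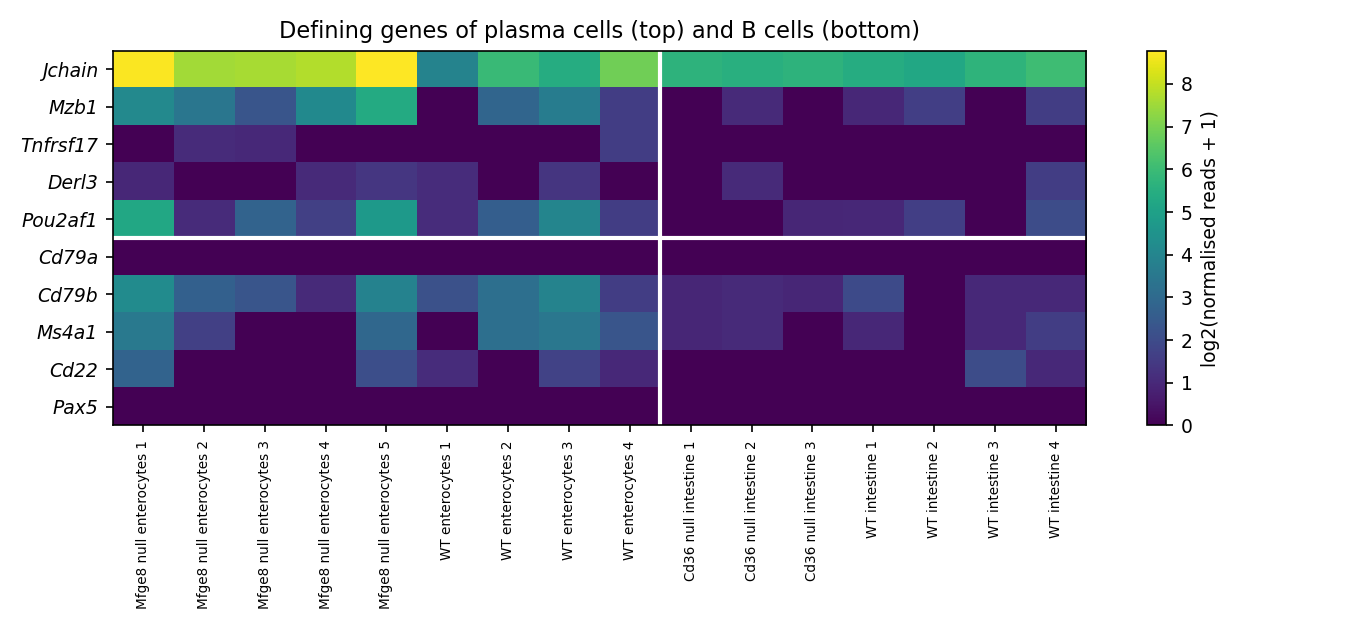
Level in each of the 16 libraries (columns, Mfge8 null then WT enterocytes, then Cd36 null and WT intestine) of genes that define plasma cells (upper rows) and B cells (lower rows), with colour as log2(normalised reads + 1). Jchain is read in every library, Cd79a and Pax5 in none; Tnfrsf17 reaches 1.99 at most, while Mzb1, Pou2af1 and Cd79b reach 40.2, 37.2 and 17.6 in Mfge8 null enterocytes.

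Of the genes that move pIgR through the cell, 17 were tested in enterocytes beside Pigr itself and none passed, with a median log2 difference of -0.04. Rab11a and Myo5b, the GTPase and motor of apical recycling endosomes, averaged 713 ± 117 and 502 ± 67.7 in Mfge8 null, against 592 ± 61.4 and 483 ± 53.8 in WT enterocytes. Rab17, a GTPase of epithelial transcytosis, averaged 382 ± 93.9 in Mfge8 null and 471 ± 140.1 in WT enterocytes. The closest to passing was Mal2, a membrane protein needed for transcytosis in liver cells, at 211 ± 12.2 in Mfge8 null and 150 ± 1.29 in WT enterocytes (limma adjusted p = 0.055). Mal2 and the adaptor subunit Ap1b1 were without overlap between the groups, both with higher levels in Mfge8 null, 2 of 17 genes, beside 3.35% of all genes tested. Over all antibody lists, 5 of 72 tested genes were without overlap as higher, the plasma cell gene Sec11c among them, and 1 as lower. Of all genes tested, 6.42% were without overlap in either direction.

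Pigr transcription is known to respond to interferon gamma, interleukin 4, interleukin 17 and microbial signals through NF-kB. Of 21 tested genes of these routes, 1 passed as higher in Mfge8 null enterocytes, none as lower, with a median of -0.04. It was Il4ra, the receptor chain shared by interleukins 4 and 13, which read 186, 256.5, 227, 299.8 and 272 in Mfge8 null, against 162.5, 142, 178 and 142 in WT enterocytes. The groups did not overlap, with a log2 difference of 0.65 (standard error 0.16, limma adjusted p = 0.0362), and the call held in 8 of 22 alternative settings, over which the adjusted p ran from 0.0160 to 0.145. Leaving out any library but null 1 and WT 3 ended it. Stat6, which acts below that receptor, averaged 51.3 ± 6.96 in Mfge8 null and 46.3 ± 1.10 in WT enterocytes and did not pass. Irf1, an interferon-induced activator of Pigr, averaged 622 ± 39.97 in Mfge8 null and 701 ± 131 in WT enterocytes. Usf1 and Usf2 encode the factors that bind E-boxes of the kind in capitals in the Pigr sequence. They averaged 9.46 ± 3.24 and 297 ± 41.4 in Mfge8 null, against 13.1 ± 8.03 and 328 ± 56.0 in WT enterocytes, and neither passed.

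Of the factors that direct B cells to IgA or keep plasma cells alive, 3 were tested in enterocytes. Aldh1a1, a retinal dehydrogenase that makes retinoic acid, fell, with 133, 395, 249, 167 and 173 in Mfge8 null, against 842, 782, 731 and 642 in WT enterocytes. The log2 difference was -1.84 (standard error 0.24, limma adjusted p = 0.000323), and it passed in 22 of 22 alternative settings. Tnfsf13b, which encodes the survival factor BAFF, averaged 18.5 ± 4.58 in Mfge8 null and 16.4 ± 2.93 in WT enterocytes and did not pass. Of 6 tested genes of plasma cell homing none passed, with a median of -0.01, and Ccl25, the small intestinal chemokine that attracts IgA plasma cells, averaged 2243 ± 485 in Mfge8 null and 2584 ± 423 in WT enterocytes. Of 7 tested genes for other antibody receptors and binders none passed, with a median of 0.08, and Fcgrt, the neonatal Fc receptor, averaged 84.5 ± 21.9 in Mfge8 null and 97.5 ± 38.9 in WT enterocytes. Over all lists, 2 genes passed as higher and 1 as lower of 72 tested, 4.17%, against 3.21% of all genes. That total of 3 was 1 without null 3, 4 or 5 or without WT 1 or 2, and 5 without WT 4.

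**Figure D5:**
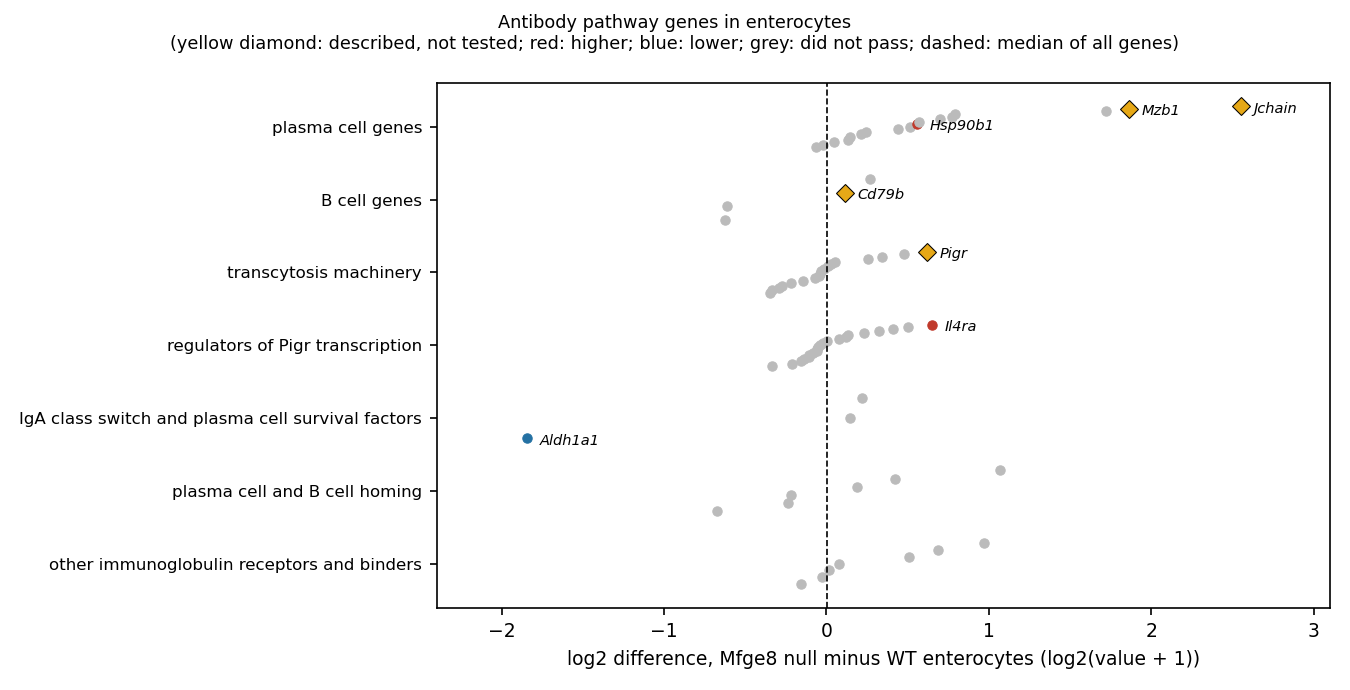
Log2 difference, Mfge8 null minus WT enterocytes (horizontal axis, log2(value + 1) scale), of each gene of the antibody lists, 1 list per line; yellow diamonds are the 4 described genes, red and blue points passed limma's test as higher and lower, grey points did not, and the dashed line is the median of all genes tested. Hsp90b1 at 0.56, Il4ra at 0.65 and Aldh1a1 at -1.84 are the genes that passed.

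Between Cd36 null and WT intestine a difference was counted when it was at least 1.5-fold without overlap, which 5.78% of 9314 genes met, 2.61% as higher and 3.17% as lower. Of 69 genes of the same lists, 2 met it as higher and 5 as lower, 10.1%, with a median log2 difference of -0.01. The filter asked for a level of at least 5 in at least 3 libraries, so a gene could enter through 1 genotype alone. Rab3b, with no read in WT intestine, entered only through Cd36 null, so nothing is read from these shares. With Cd36 null 2 left out, Rab3b could not pass the filter, and the count of higher genes was 1. The counts were 2 higher and 1 lower at 2-fold, 1 and 2 with a filter at 20, and 3 and 7 with overlap allowed. The plasma cell genes Slamf7 and Fam46c averaged 5.45 and 5.23 in Cd36 null, against 11.1 and 8.89 in WT intestine, and 13 other tested plasma cell genes did not meet it. The homing receptor Ccr9 and the chemokine Ccl20 averaged 20.8 and 3.09 in Cd36 null, against 35.1 and 8.87 in WT intestine. Relb, an NF-kB subunit, averaged 17.1 in Cd36 null and 31.1 in WT intestine. Tnfsf13b averaged 26.6 in Cd36 null and 11.1 in WT intestine, a log2 difference of 1.22. Rab3b had 25 reads in Cd36 null and none in WT intestine. Its 8.83 RPM in Cd36 null was 10.3 times a floor of 3 counts over the WT group (0.857 RPM). That ratio leaves out the counting error of the 25 reads. Markers of other cell types differed between these preparations as well. Of 14 T cell markers 7 were lower past 1.5-fold, and their summed level was 851 to 919 in Cd36 null and 1109 to 1486 in WT intestine. Of 7 Paneth cell markers 2 were lower, with sums of 979.7 to 1032 in Cd36 null and 1057 to 1169.9 in WT intestine. Of 3 macrophage and dendritic cell markers 1 was lower, although the summed level of the whole list was 316 to 328 in Cd36 null and 235 to 288 in WT intestine. Goblet cell markers summed to 8746 to 8935 in Cd36 null and 7367 to 7662 in WT intestine, and enterocyte markers to 37178 to 38172 in Cd36 null and 36264 to 37042 in WT intestine, with none past 1.5-fold in either list. Of 7 ileal markers 2 were higher and 1 was lower. The part of these cell types in the differences was not tested.

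Other cell types and the intestinal position of the sample varied between the enterocyte libraries as well. The summed level of 16 T cell and intraepithelial lymphocyte markers was 6991, 3819, 4353, 5732 and 9322 in Mfge8 null, against 2835, 3953, 1412 and 4355 in WT enterocytes. Null 5 and null 1, the highest in Jchain, were the highest in these markers too, and WT 4, the highest WT library in Jchain, was the highest WT library in them. WT 1, the lowest library in Jchain, was above WT 3 in these markers. Of 14 tested T cell markers none passed, but all 14 were higher in Mfge8 null, with log2 differences of 0.37 to 1.16 and a median of 0.96. Their defining genes were well above 0, such as Cd3e at a mean of 21.1 ± 7.25 in Mfge8 null and 9.66 ± 4.96 in WT enterocytes. The part of these cells in the Jchain difference was not tested.

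The summed level of 12 enterocyte markers was 65269 to 90049 in Mfge8 null and 58582 to 89048 in WT enterocytes, none of the 12 passed, and the median log2 difference was 0.08. Of 4 tested markers of the proximal small intestine 2 passed as lower in Mfge8 null, beside 1.63% of all genes tested. Of 6 ileal markers 1 passed as higher, beside 1.58%. The summed levels overlapped for both lists. Proximal markers summed to 1877 to 5587 in Mfge8 null and 2817 to 6589 in WT enterocytes, and ileal markers to 1773 to 11626 in Mfge8 null and 2641 to 11751 in WT enterocytes. A regional score, the mean log2 level of the proximal minus that of the ileal markers, read -1.13, -0.02, -1.98, 0.92 and -2.51 in Mfge8 null, against 1.61, 0.17, 0.10 and -0.89 in WT enterocytes. With this score as a covariate the log2 difference was 1.96 for Jchain and 0.70 for Pigr, and of the antibody list genes only Aldh1a1 passed. Neither goblet cell (7 tested) nor Paneth cell markers (7 tested) nor macrophage and dendritic cell markers (6 tested) had a member that passed.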

How the data were processed

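Per the labels' protocols, a forward 3' tag kit with a UMI module gave single-end reads. The submitters' processing notes list mm10 as build and, as tools, DESeq2 2.11.40, HTSeq 0.91, HISAT2 2.1.0 and Trimmomatic 0.38.1; their order, settings, UMI use and strand setting are not given in the sources used here. The authors deposited a normalised signal, 1 table per experiment, normalised separately, so tests stayed within a table. In each library 100% of values were whole multiples, within 1e-06, of the smallest positive value, which gave size factors of 0.855 to 1.28 for enterocytes and 0.939 to 1.105 for intestine, and read counts. For WT enterocytes 4 and Mfge8 null 3 the size factor is near 1 and the step less certain, so count tests used the other 7 enterocyte libraries.

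From these values, genes with at least 5 in at least 4 enterocyte libraries (3 in intestine) were tested or compared. Log2(value + 1) was tested with limma 3.58.1 (trend, R 4.3.3), 2-sided, with Benjamini-Hochberg adjustment over all genes tested and a threshold of 0.05. The pseudocount of 1 understates the change of low genes. Intestine libraries of 1 genotype differed by little more than counting error, so no test was made there. A difference needed 1.5-fold on the log2(value + 1) scale without overlap. Count tests with edgeR 4.0.16 (258 genes called) and DESeq2 1.42.0 (398), other scalings, filters and pseudocounts, a regional covariate, a replicate block and leaving out libraries were alternatives. Intervals are 95% exact Poisson or binomial ones, cover counting error only, and reads are not independent molecules unless UMIs were collapsed.

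The members and lists were chosen with earlier results of these data known. Of list genes, those that passed were named, with further members given by role; genes like a member were the 5 with the highest r. The limma fit was tested on simulated counts, with changes larger than those of the 3 list genes that passed. No such test was made of the 1.5-fold rule. A marker of the B cell list is not reported here.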

Additional observations from a re-analysis of the deposited data

Results flagged for a closer look

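Of 42 groups of values looked at, over 14 genes, 4 held a library far from the others of its group, where chance gives about 1 in 20. Slamf7, a surface receptor of plasma cells and cytotoxic lymphocytes, read 10.9 in WT enterocytes 4, and the next WT library read 1.57. The chemokine gene Ccl20 read 103 in the same library, and the next WT library read 18.7. Relb, an NF-kB subunit, read 257 in WT enterocytes 1, below the next WT library at 299.8. In WT intestine 3 Relb read 22.9, below the next WT library at 33.0. In Mfge8 null enterocytes, WT enterocytes and WT intestine no Jchain, Pigr, Mzb1 or Cd79b value stood apart from its group in this way; the 3 Cd36 null intestine libraries are too few to be looked at so.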

How the results depend on the processing

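In Mfge8 null against WT enterocytes the Jchain log2 difference stayed between 1.96 and 3.11 and that of Pigr between 0.53 and 0.70 over 20 alternatives each, and that of Mzb1 between 1.19 and 2.41 over 19. Cd79b ran from -0.37 to 0.56, so it has no stable sign. These enterocyte alternatives are not all separate checks. A change of the filter cannot move a log2 difference. Leaving out null 5, the replicate block and replicates 1 to 4 with no block gave 1 and the same value, 2.38 for Jchain. In Cd36 null against WT intestine Jchain ran from -0.09 to 0.17, Pigr from -0.06 to -0.01, Mzb1 from -1.05 to -0.26 and Cd79b from -0.36 to 0.29 over 11 alternatives.

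The 303 genes called in enterocytes became 128 to 362 when 1 library was left out (128, 159 and 193 without WT 1, 2 and 3; 185 and 199 without null 3 and 5), 139 with the regional covariate and 116 without null 3 and 5 together, an alternative chosen after seeing the data. The 3 antibody list genes called became 1 to 5 when 1 library was left out, 1 with the regional covariate, 1 without null 3 and 5, and 6 with DESeq2. No clear pairing by number was seen: same-numbered enterocyte libraries had r of -0.12 to 0.21 over 4 pairs and intestine libraries -0.01 to 0.00 over 3, and of the null libraries 2 enterocyte and 0 intestine ones correlated best with their own number. So few pairs cannot exclude a pairing. With a replicate block on replicates 1 to 4, 232 genes and 2 list genes were called, against 199 and 1 in the same libraries with no block. No block was possible for the untested intestine groups. The 538 intestine genes past 1.5-fold became 604 to 703 when 1 library was left out, 191 at 2-fold, 241 with a filter at 20 and 897 with overlap allowed. The cause of these moves was not tested, beyond the smaller number of libraries or genes where some were left out. Depth limits Mzb1 and Cd79b in the intestine, at 1 to 5 reads per group, and the part of the exon overlap in the Mzb1 counts was not tested.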

Other observations

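Of 126 genes of the antibody lists with a row in the tables, 6 had no read in any of the 16 libraries: Cd79a and Pax5 of B cells, Tnfsf13 (APRIL), Il5, Cxcl12 and Madcam1. A count of 0 allows up to 0.171 RPM in the summed enterocyte libraries and 0.474 in the summed intestine libraries, for counting error only. These limits hold for a gene only if its reads are counted to its row, which was not tested. Cd79b, the partner of Cd79a, had 45 reads in Mfge8 null and 31 in WT enterocytes. Jchain was read in all 16 libraries.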
